A study of Mus musculus with 4 samples.

Results

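The signals of 4 genes that make or answer second messengers were compared between brown adipocytes expressing NT-PGC-1α and control cells: Adcy9, Plcb1, Prkcz and Camk4. They stand for the cAMP, phospholipase C, atypical protein kinase C and calcium/calmodulin kinase arms. For each of the 4, the probe was the one to which the study's supplementary gene table, used here for names alone, gives its symbol. Any further probe with the same gene identifier was to be added. These 4 genes are 4 of 1605 genes that could be named on the array, and 4 of 31769 distinct gene identifier entries over its 33012 probes. Each has 1 probe and no other probe shares an identifier with it. The genes were chosen by their measured difference on these same arrays, so their folds are given as a description, with no test.

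RNA came from immortalized brown preadipocytes of FVB mice. The cells had been transduced with a lentiviral construct, either one coding for NT-PGC-1α (hemagglutinin-tagged according to the methods) or the empty vector. NT-PGC-1α is a short form of the transcriptional coactivator PGC-1α that keeps the N-terminal activation domain and the part that contacts nuclear receptors. Both groups went through the same differentiation, with 2 days of induction and 5 days of maintenance. Insulin (20 nM) and triiodothyronine (1 nM) were present throughout, and the induction medium also held dexamethasone (2 µg/ml), indomethacin (250 µM) and isobutylmethylxanthine (0.5 mM). Isobutylmethylxanthine blocks phosphodiesterases, the enzymes that break down cAMP, and it was present in the induction medium of both groups. Each group is 1 RNA pool of a single cell line, made from 3 RNA samples according to the methods and from 2 according to the deposited series description. The promoter that drives the construct is not given in the sources used here. Each pool was read on 2 ABI Mouse Genome Survey arrays, A and B, which are technical replicates. With 1 pool per group there is no replicate check of any difference between groups, and no p-value is given.

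Noradrenaline drives brown fat through several second messengers. Beta-adrenergic receptors act through Gs and adenylyl cyclases to raise cAMP, which activates protein kinase A, lipolysis and the transcription of thermogenic genes. Alpha1-adrenergic receptors act through Gq and phospholipase C beta to make inositol trisphosphate, which releases calcium, and diacylglycerol, which activates many protein kinases C. Calcium bound to calmodulin activates the calmodulin-dependent kinases, and atypical protein kinases C answer neither to calcium nor to diacylglycerol.

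The overexpressed gene was checked first. The probe of Ppargc1a, which codes for PGC-1α, gave normalized signals of 114 and 136 on empty vector arrays A and B and of 1078 and 714 on NT-PGC-1α arrays A and B. The groups did not overlap, and the fold was 7.06, with 5.26 to 9.46 as its range when each NT-PGC-1α array was set against each empty vector array (4 pairings). Here and below, a signal is the deposited intensity after quantile normalization across the 4 arrays, in arbitrary units, and a fold compares the geometric mean signals of the groups, followed by its range over those 4 pairings. The deposited intensities of Ppargc1a on empty vector arrays A and B were 104 and 129, against array medians of 448 and 398. Its fold therefore rests on a denominator near the bottom of the array. Which part of the transcript the probe reads was not established.

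Of the 4 genes, 3 had a higher signal in NT-PGC-1α cells, and 1 had a lower signal. Adcy9, which codes for a membrane adenylyl cyclase found in many tissues, was 2.51-fold higher. Plcb1, which codes for a Gq-activated phospholipase C, was 1.75-fold higher. Prkcz, which codes for the atypical protein kinase C zeta, was 6.35-fold higher. Camk4, which codes for the nuclear calmodulin-dependent kinase CaMKIV that phosphorylates CREB, was 14.6-fold lower. All 4 passed a fold of 1.5 and had no array of one group within the range of the other. Over all 33012 probes of the array, 16.9% were higher and 17.6% were lower by the same rule, and since the genes were selected on this contrast nothing is read from their count. With 75th percentile centring in place of quantile normalization the shares over all probes were 28.0% and 11.4%. In RNA from whole cultures, fewer cells that express a gene and less of its RNA per cell cannot be told apart.

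**Figure D1:**
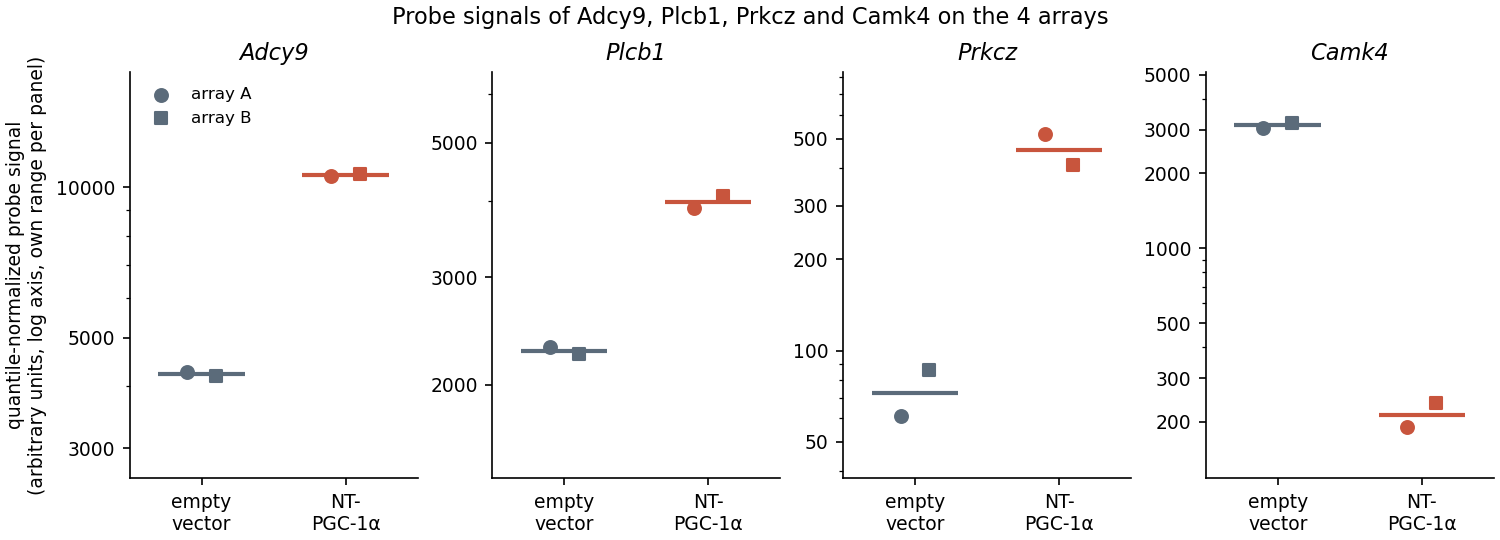
Quantile-normalized signal (arbitrary units, log axis with its own range in each panel) of the probes of Adcy9, Plcb1, Prkcz and Camk4 in empty vector (grey) and NT-PGC-1α (red) cells, with array A as a circle, array B as a square and the geometric mean as a line. The arrays of the groups are apart for all 4 probes, and arrays A and B lie farthest from each other for Prkcz (1.42-fold in empty vector, 1.27-fold in NT-PGC-1α) and for Camk4 in NT-PGC-1α (1.26-fold).

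The 5′ ends of the 3 genes with a higher signal are shown because NT-PGC-1α acts through factors bound at genes, and because the letters of a cAMP response element (CRE) can be looked for there. The windows run from 250 bases before to 50 bases after the start site in RefSeq (mouse build GRCm38.p6) and are written 5′ to 3′ on the strand of the gene. Capitals mark the CRE, TGACGTCA, or its half-site, TGACG, which was searched on both strands and lies inside every full CRE. The windows are chr16:4420449-4420748, minus strand, for Adcy9, chr2:134785914-134786213, plus strand, for Plcb1, chr4:155361379-155361678, minus strand, for Prkcz start 1, and chr4:155345740-155346039, minus strand, for Prkcz start 2.
Adcy9: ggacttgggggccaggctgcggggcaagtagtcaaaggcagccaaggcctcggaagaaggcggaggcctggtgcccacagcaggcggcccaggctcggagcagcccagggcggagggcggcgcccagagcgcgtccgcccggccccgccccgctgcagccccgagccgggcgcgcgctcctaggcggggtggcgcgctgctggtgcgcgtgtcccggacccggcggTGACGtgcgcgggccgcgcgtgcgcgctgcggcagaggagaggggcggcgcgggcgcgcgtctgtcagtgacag
Plcb1: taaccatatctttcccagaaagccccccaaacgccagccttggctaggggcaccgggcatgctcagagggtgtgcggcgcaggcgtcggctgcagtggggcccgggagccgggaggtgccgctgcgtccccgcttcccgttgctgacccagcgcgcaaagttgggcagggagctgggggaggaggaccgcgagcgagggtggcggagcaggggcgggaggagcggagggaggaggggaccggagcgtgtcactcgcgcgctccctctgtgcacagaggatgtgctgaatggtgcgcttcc
Prkcz start 1: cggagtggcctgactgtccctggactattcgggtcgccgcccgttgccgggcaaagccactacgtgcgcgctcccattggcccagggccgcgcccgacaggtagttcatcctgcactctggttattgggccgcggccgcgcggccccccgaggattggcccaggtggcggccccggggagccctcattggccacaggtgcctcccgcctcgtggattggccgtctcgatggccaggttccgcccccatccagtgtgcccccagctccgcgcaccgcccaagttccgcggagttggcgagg
Prkcz start 2: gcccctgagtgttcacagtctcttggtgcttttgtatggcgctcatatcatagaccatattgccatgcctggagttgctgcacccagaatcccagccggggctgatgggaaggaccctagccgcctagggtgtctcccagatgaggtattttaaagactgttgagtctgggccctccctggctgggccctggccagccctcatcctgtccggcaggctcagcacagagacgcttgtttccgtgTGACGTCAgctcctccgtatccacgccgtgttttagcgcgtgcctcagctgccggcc

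Adcy9 holds a CRE half-site that begins 24 bases before the start site. Plcb1 holds neither the full CRE nor the half-site in this window. Prkcz has 3 start sites in the table, and it is known for an internal promoter from which the shorter kinase PKMζ, without the regulatory domain, is made. Start 1 of Prkcz holds no CRE or half-site. Start 2, which lies 15639 bases downstream of start 1, holds a full CRE that begins 7 bases before the start site. Start 3, at 16679 bases downstream of start 1, holds a half-site that begins 23 bases before its start. The nuclear receptor half-site AGGTCA, searched on both strands, was in none of these 5 windows. Among all 32851 windows of the table, 1.79% hold the full CRE, 20.8% the CRE half-site and 16.3% the nuclear receptor half-site. The windows of these 3 genes are rich in G and C, with 78.3% for Adcy9, 69.7% for Plcb1 and 71.0%, 59.3% and 58.3% for starts 1, 2 and 3 of Prkcz, against a median of 52.7% over all windows. A match of letters describes the window and says nothing on binding, and which start the Prkcz probe reads was not established. Camk4 is not shown.

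The probe of Adcy9 read 4265 and 4186 on empty vector arrays A and B and 10545 and 10627 on NT-PGC-1α arrays A and B. Both NT-PGC-1α arrays were high and the spread within a pool was small, at 1.02-fold in empty vector and 1.01-fold in NT-PGC-1α. The fold was 2.51 (2.47 to 2.54). On the log2 scale the difference was 1.33 (1.31 to 1.34). Adcy9 went from percentiles 77.4 and 77.3 of the empty vector arrays to 85.5 and 85.6 of the NT-PGC-1α arrays. In the deposited intensities, without normalization, the values were 4912 and 4255 against 10529 and 9376, and the fold was 2.17. Few probes as bright as that of Adcy9 passed the 1.5-fold limit between the pools, but Adcy9 was selected for its difference, so nothing is read from this. When the probes were divided into 20 bands of mean signal, 2.97% of the probes in its band were at least 1.5-fold higher in NT-PGC-1α cells and 4.78% were at least 1.5-fold lower. Among probes in the same 1 of 20 bands of signal within a pool, 95% differed between arrays A and B by less than 1.15-fold at the level of Adcy9 in empty vector and 1.13-fold at its level in NT-PGC-1α. Over all probes, Adcy9 ranked 1556 among the increases.

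The probe of Plcb1 read 2304 and 2245 on empty vector arrays A and B and 3898 and 4078 on NT-PGC-1α arrays A and B. The groups did not overlap, and the arrays of a pool differed by 1.03-fold and 1.05-fold. The fold was 1.75 (1.69 to 1.82), a log2 difference of 0.81 (0.76 to 0.86). It was the smallest of the 4 differences. Its percentile within the array went from 72.0 and 71.8 to 76.6 and 77.0. In the deposited intensities the values were 2696 and 2315 against 3816 and 3538. The fold of Plcb1 was 1.47 without normalization and 1.49 with median centring, so the gene lay under the 1.5-fold limit in these settings and above it with quantile normalization, 75th percentile centring and cyclic loess. In its band of signal, 10.7% of probes were higher by the same rule and 13.6% lower. Plcb1 ranked 3834 among the increases.

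The probe of Prkcz read 60.7 and 86.3 on empty vector arrays A and B and 517 and 409 on NT-PGC-1α arrays A and B. These are low signals: Prkcz lay at percentiles 0.321 and 1.57 of the empty vector arrays, and at 54.0 and 49.4 of the NT-PGC-1α arrays. The files give no measure of background, so the fold rests on a denominator near the bottom of the array. The fold was 6.35, and its range over the pairings was wide, from 4.73 (NT-PGC-1α array B against empty vector array B) to 8.51 (A against A). On the log2 scale the difference was 2.67 (2.24 to 3.09). The deposited intensities were 53.5 and 80.5 against 532 and 385, with a fold of 6.90. Adding the 5th percentile of all signals, 112, before the log2 step brought the fold of Prkcz down to 3.09. At the level of Prkcz in empty vector, the dimmest of the 20 bands, 95% of probes differed between arrays A and B by less than 2.54-fold, and at its level in NT-PGC-1α by less than 1.94-fold. In its band of mean signal over all arrays, 18.2% of probes were at least 1.5-fold higher.

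The probe of Camk4 read 3047 and 3193 on empty vector arrays A and B and 190.0 and 239 on NT-PGC-1α arrays A and B. Camk4 was bright in the control cells and dim in both NT-PGC-1α arrays. Its signal was 14.6-fold lower (12.8 to 16.8), a log2 difference of -3.87 (-4.07 to -3.67). Camk4 went from percentiles 74.5 and 74.9 of the array to 23.3 and 33.1. The deposited intensities were 3549 and 3271 against 206 and 242.5, and the fold without normalization was 15.3. The arrays of the control pool differed by 1.05-fold and those of the NT-PGC-1α pool by 1.26-fold, so most of the spread of the fold came from the dim side. In its band of mean signal, 25.2% of probes were at least 1.5-fold lower. At the level of Camk4 in empty vector 95% of probes differed between arrays A and B by less than 1.19-fold, and at its level in NT-PGC-1α by less than 1.92-fold. Camk4 ranked 22 among the decreases of all 33012 probes. It was the largest of the 4 differences in size, and the only decrease, under each scaling, background and offset setting and with each array left out.

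**Figure D2:**
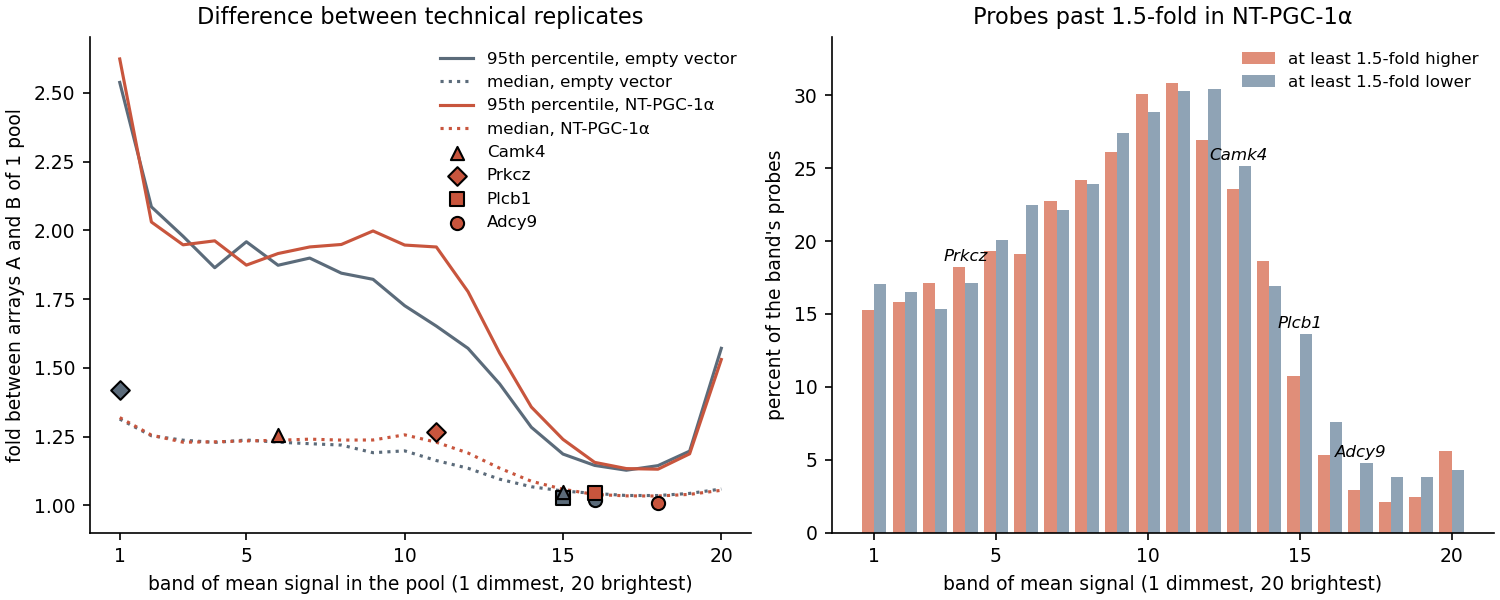
Left, fold between arrays A and B of 1 pool (median dotted, 95th percentile solid) over 20 bands of mean signal within the pool, with the values of the 4 probes as points (grey, empty vector; red, NT-PGC-1α); right, percent of probes in each of 20 bands of mean signal over all arrays at least 1.5-fold higher or lower in NT-PGC-1α cells, with the bands of the 4 probes named. All 8 points lie under the 95th percentile of their band and pool, and on the right the bands of Adcy9 (2.97% higher) and Plcb1 (10.7% higher) hold fewer such probes than those of Prkcz (18.2% higher) and Camk4 (25.2% lower).

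The 4 differences varied with processing to unequal degrees. Across 6 other settings (4 scalings, a background correction and an offset), the fold of Adcy9 lay between 2.17 and 2.61, and that of Plcb1 between 1.47 and 1.77. Prkcz ran from 3.09 to 8.28 and Camk4 from 9.93 to 15.3. No setting changed the direction of any of the 4. With 1 array left out at a time, the folds were 2.48 to 2.53 for Adcy9, 1.71 to 1.79 for Plcb1, 5.32 to 7.57 for Prkcz and 13.1 to 16.4 for Camk4. The bright probes Adcy9 and Plcb1 moved most with the scaling, and Prkcz and Camk4 moved most with the offset.

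**Figure D3:**
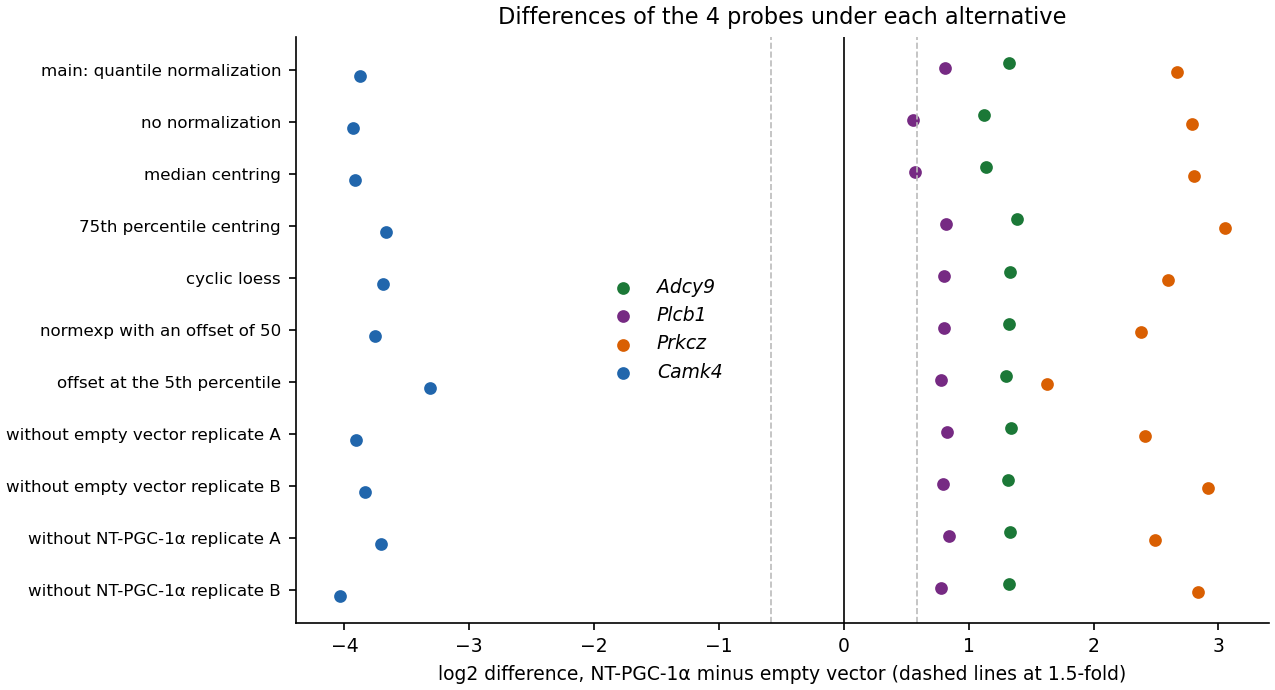
Log2 difference (NT-PGC-1α minus empty vector) of the 4 probes under the main setting and each alternative, with a point per gene and setting and dashed lines at 1.5-fold. Plcb1 is the single gene that crosses a dashed line, at 1.47-fold without normalization and 1.49-fold with median centring, and the Prkcz point moves in to 3.09-fold with the offset.

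The genes whose signals over the 4 arrays ran nearest to each of the 4 were found among 1621 other named probes, by the Euclidean distance between log2 signals centred on their own mean. Among the nearest to Adcy9 were Cdh13 (distance 0.10, 2.68-fold higher) and Abcb8 (0.11, 2.49-fold). Nearest to Plcb1 were Luzp1, Fpr-rs7 and Impa2, all at a distance of 0.03 and 1.74-fold to 1.75-fold higher. Impa2, which codes for an inositol monophosphatase, also belongs to the phospholipase C list below. Nearest to Prkcz were Slc26a4 (distance 0.12, 6.37-fold higher), Asb2 (0.14, 6.83-fold) and B3galt5 (0.19, 5.61-fold). Camk4 had the least close neighbours, Slco1a4 (distance 0.17, 13.4-fold lower), Slc2a12 (0.30, 16.1-fold) and Scnn1a (0.36, 11.5-fold). The 4 arrays of 2 pools allow no more than a group difference and the noise within pools to set these distances.

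The other genes of the 4 arms were taken from lists of 255 symbols, older spellings included, of which 48 had a named probe. Without the 4 genes above, 13 of 44 were at least 1.5-fold higher, 22 were at least 1.5-fold lower and 9 were neither, with a median fold of 0.699 against 1.01 over all probes, of which 16.9% were higher and 17.6% lower. The split of the lists moved with the scaling. All 48 genes gave 16 higher and 23 lower with quantile normalization, 18 and 18 with 75th percentile centring, and 12 and 23 without normalization or with median centring. Most of these names come from the study's table of genes that differed on these arrays, so the counts are not independent evidence. Only 4 of the 48, Gnas, Akap4, Akap7 and Akap10, were named by an accession instead, and of these 1 was higher, 1 lower and 2 neither.

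In the cAMP arm Adcy9 was the single adenylyl cyclase of 10 with a named probe. Upstream of it, the 3 receptors that could be named were lower, the alpha2-adrenergic Adra2b by 3.03-fold, the adenosine receptor Adora2b by 1.59-fold and the prostacyclin receptor Ptgir by 2.91-fold. Of the probes named for G protein alpha subunits, that of Gnas was 1.84-fold higher (1.63 to 2.08). Gnas codes for the stimulatory subunit that activates adenylyl cyclases. Its probe was dim, with deposited intensities of 239 and 181 on empty vector arrays A and B, against array medians of 448 and 398. The probe carries 1 RefSeq transcript identifier, and whether that transcript codes for the stimulatory subunit was not established. The probe named for Gnai2, an inhibitory subunit, was 7.14-fold lower (6.65 to 7.68), but it carries 4 gene identifiers and the other probes that share one differed by far less, as given below. Its NT-PGC-1α signals were also low, 196 and 171 on arrays A and B. Gnao1 was 1.74-fold lower. Beside Adcy9, the transducin subunit Gnat2 was 3.27-fold higher and Rgs10, a regulator that speeds the switching off of Gi proteins, 1.63-fold higher, though Rgs10 lay under the limit without normalization (log2 difference 0.47) and with median centring. Among the listed phosphodiesterases, Pde2a and Pde5a (specific for cGMP) were 1.65-fold and 1.51-fold lower. Pde1a and Pde7a passed the limit in neither direction. With 75th percentile centring Pde5a did not pass it either (log2 difference -0.49). Downstream of cAMP, Rapgef3, which codes for the cAMP sensor Epac1, was 5.75-fold higher (5.39 to 6.13). The fold of Rapgef3 rests on low empty vector signals, 123 and 136 on arrays A and B. The listed genes were not rerun with the background correction or the offset. Pkia, an inhibitor of protein kinase A, was 2.204-fold lower. The anchor proteins Akap8l and Akap10 lay at the limit, 1.504-fold higher and 1.51-fold lower, and each lost its place past it under another scaling. In all, 6 of 23 genes of this arm were higher and 9 lower, Adcy9 included.

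In the phospholipase C arm Plcb1 was the single phospholipase C of 15 with a named probe. Among the genes that supply its substrate, Pi4k2a and Pip5k1c were 1.55-fold and 1.51-fold lower, and Pip5k2b, a phosphatidylinositol phosphate kinase, was 4.34-fold lower. The NT-PGC-1α signals of Pip5k2b were low, 364 and 278 on arrays A and B. Pi4k2a and Pip5k1c lay near the limit and under it with 75th percentile centring (log2 differences of -0.55 and -0.53). In inositol recycling, Impa2 was 1.75-fold higher, while Isyna1, which makes inositol phosphate from glucose 6-phosphate, and Slc5a3, an inositol transporter, were 2.19-fold and 2.57-fold lower. Of the diacylglycerol kinases, which clear the other product of Plcb1, Dgkq was 2.199-fold higher and Dgkz 8.19-fold lower (6.76 to 9.93). The fold of Dgkz rests on low NT-PGC-1α signals, 99.5 and 128 on arrays A and B. In all, 3 of 10 genes were higher and 6 lower, Plcb1 included, and with 75th percentile centring or without normalization the counts lose Pi4k2a and Pip5k1c or Plcb1.

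In the protein kinase C arm Prkcz was 1 of 4 genes with a named probe. Pkn2, a kinase related to protein kinase C, was 1.72-fold higher, but under the limit without normalization (log2 difference 0.53) and with median centring. Pard3, which codes for a polarity protein that binds atypical protein kinases C such as the product of Prkcz, was 2.54-fold lower (2.42 to 2.67), and Prkcbp1, named for binding protein kinase C, was 2.03-fold lower by its named probe.

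In the calcium/calmodulin arm Camk4 and Camkk1, which codes for a kinase that phosphorylates and activates CaMKIV, were both lower, Camkk1 by 2.61-fold (2.37 to 2.88). Calml4, a calmodulin-like gene, was 2.45-fold higher. Among the nuclear targets of such kinases, Mef2d was 1.57-fold lower by its named probe, and just under the limit with 75th percentile centring, and Hdac7a, an older symbol of Hdac7, 4.74-fold higher. Among calcium channel subunits, Cacna1a, Cacna1h and Cacna2d1 were 1.53-fold, 3.43-fold and 1.89-fold higher, and Cacna1d and Cacnb1 were 3.32-fold and 1.85-fold lower. These 3 increases rest on low empty vector signals (arrays A and B: 261 and 232, 238 and 228, 312 and 305). The decrease of Cacna1d rests on low NT-PGC-1α signals, 198 and 154. Casq2, a calcium store protein, was 2.25-fold lower by its named probe. In all, 5 of 11 genes were higher and 6 lower, Camk4 included.

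For the 4 genes no probe gives a second reading, but for 7 of the listed genes 8 unnamed probes share an identifier. Of these 8, 2 passed the limit in the direction of the named probe, and 6 passed it in neither direction. The 2 were that for Adora2b, at 2.02-fold lower, and that for Gnat2, at 4.53-fold higher. Both carry 2 identifiers, so which gene they read was not established. Their folds also rest on low signals. That for Adora2b read 369.8 and 189.9 on NT-PGC-1α arrays A and B. That for Gnat2 read 269.8 and 145.5 on empty vector arrays A and B. The 2 unnamed probes that share an identifier with Gnai2 were 1.21-fold and 1.18-fold lower, beside 7.14-fold for its named probe. The 1.18-fold one also carries 2 identifiers. That for Casq2 was 1.39-fold lower (1.08 to 1.78), beside 2.25-fold for its named probe. For Mef2d and Prkcbp1 the unnamed probe ran the other way from the named one, 1.37-fold and 1.19-fold higher. That for Gna13, whose named probe was 1.41-fold higher, was 1.02-fold lower. The direction of Mef2d, Prkcbp1 and Gna13 is therefore uncertain.

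**Figure D4:**
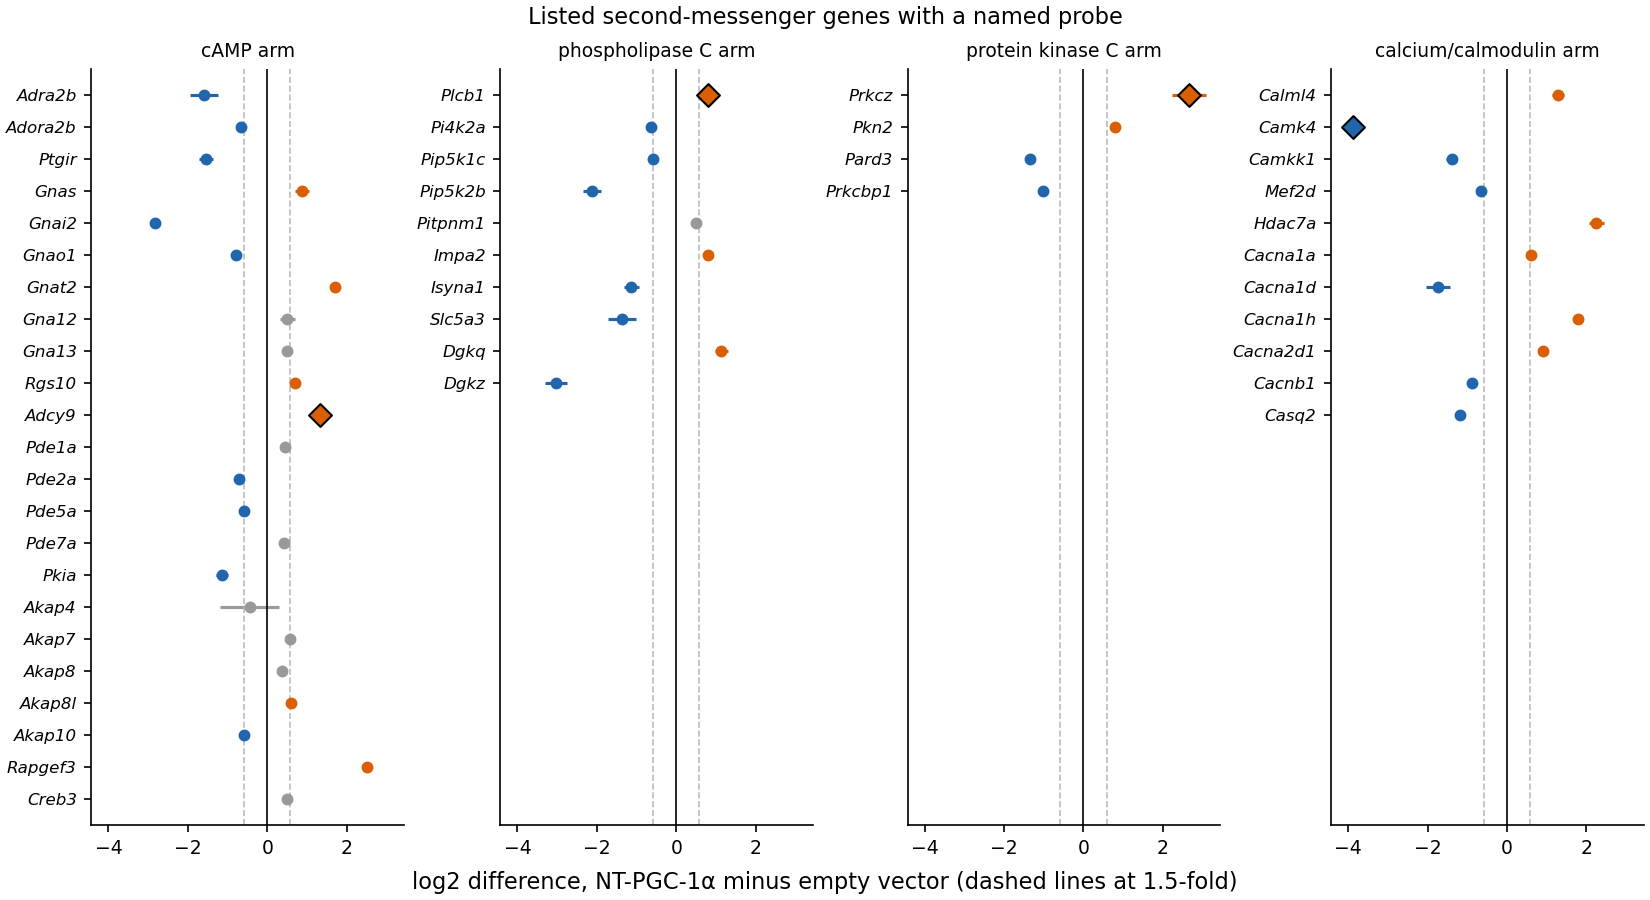
Log2 difference (NT-PGC-1α minus empty vector) of the 48 listed genes with a named probe, by arm, with the range over the 4 pairings of arrays as a line, orange at least 1.5-fold higher, blue at least 1.5-fold lower, grey neither, and diamonds for Adcy9, Plcb1, Prkcz and Camk4. Camk4 lies farthest to the left at -3.87 and Prkcz farthest to the right at 2.67.

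The label of the cells could be checked only in part, since 9 of 41 marker genes had a named probe and the defining markers Ucp1, Cidea, Prdm16, Adipoq and Fabp4 were not among them. The paper reports no significant rise of Ucp1 on these arrays. All 9 named markers passed the 1.5-fold limit, 4 higher and 5 lower in NT-PGC-1α cells. Over all probes 16.9% were higher and 17.6% lower. The summed signal of the brown adipocyte markers Ppara and Ucp3 was 5789 to 6098 in empty vector and 14552 to 14920 in NT-PGC-1α arrays, and that of Retn, an adipocyte gene, 851 to 1016 and 1534 to 1663. Ppara gave most of the brown adipocyte sum, and Ucp3 read 173 and 190 on empty vector arrays A and B. The fibroblast genes Col1a1 and Col3a1 summed to 401726 to 443742 and 268156 to 286717. The muscle genes Myog and Myh4 summed to 784 to 884 and 332 to 399.9, most of it from Myog. The macrophage gene Cd68 read 961 to 981 and 398 to 402, and the endothelial gene Cdh5 read 339 to 411 and 754 to 895. These markers, too, were named from genes selected on these arrays, and their part in the differences of Adcy9, Plcb1, Prkcz and Camk4 was not tested.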

How the data were processed

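RNA from each group was hybridized to 2 one-colour ABI Mouse Genome Survey arrays. The authors deposited an intensity for each of 33012 probes on each array, on a linear scale and before normalization across arrays. Whether background had been subtracted was not established, and the number of arrays limits the precision. R 2.2.1 is named in the submitters' processing notes. Here, intensities were set on the log2 scale and quantile normalized (R 4.3.3, limma 3.58.1), as the methods describe, with no offset and no probe removed. A gene counted as higher or lower at a fold of at least 1.5 with no array of one group inside the range of the other. Each group is 1 pool, so no test was run. Names came from the study's supplementary gene table (1342 probes) or a RefSeq accession (283 probes, GRCm38.p6), and 31387 probes have no name. The text names the 4 genes, their 3 nearest probes, Ppargc1a and the listed pathway genes past 1.5-fold, except 1 gene that is not reported here. Akap4, Akap7, Pde1a and Pde7a, and the marker genes, are named beside them. The genes, lists and tests were chosen with earlier results of these data known. The calculation was tested on simulated data with far fewer changed probes than passed the limit here, which cannot judge the choice of scaling. Tables and plots used Python 3.11.15, numpy 2.4.6, pandas 2.3.3 and matplotlib 3.10.9.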

Additional observations from a re-analysis of the deposited data

How the results depend on the processing

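The directions of Adcy9, Plcb1, Prkcz and Camk4 were the same with no normalization, median centring, 75th percentile centring, cyclic loess, an offset at the 5th percentile, normexp (offset 50) and each array left out. The number of all probes at least 1.5-fold higher was 5565 and became 9227 with 75th percentile centring, which shifted the median log2 difference of all probes to 0.22. A filter at the array median kept probes above it on both arrays of at least 1 group. With this filter the number higher became 2847 of 17726 probes, 16.1% against 16.9% without it. The number at least 1.5-fold lower was 5802 and became 3759 and 3109 in these settings. With the filter this was 17.5% of the probes, against 17.6% without it. Of the listed genes, 1 (Akap4) changed sign between scalings. The mean over probes with the same identifier was not run because no other probe shares an identifier with the 4 genes. No paired analysis was possible because arrays A and B are technical replicates of 1 pool and no source ties a letter across groups. The same filter on the 4 genes, chosen after seeing the data, kept 3 of them, with 2 higher and 1 lower, and removed Prkcz. Camk4 passed it through the empty vector arrays alone, at percentiles 74.5 and 74.9 against 23.3 and 33.1 of the NT-PGC-1α arrays. Since the genes were selected on this contrast, nothing is read from which of them passed.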
